A study of Mus musculus with 10 samples.

Results

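The genes described are 9 transcription regulators of the TCF1, LEF1, SATB1 and E-protein axis, chosen by name: Tcf7, Lef1, Satb1, Id2, Id3, Tcf3, Tcf12, Myb and Sox4. All 9 were among the 13252 genes of the deposited table, and all 9 were among the 10718 genes tested. Expression was measured by RNA-seq in mouse regulatory T cells (Treg cells), the CD4 T cells that restrain immune responses. The Helios+ group held 5 libraries of cells sorted as CD4+RFP+GFP+. The Helios- group held 5 libraries of cells sorted as CD4+RFP+GFP-. Both groups thus shared CD4 and the RFP signal and differed in GFP, which the labels tie to Helios, the Ikaros family factor encoded by Ikzf2. The labels do not give what RFP reports, the mouse strain, the age or the organ, and the purity of the sorts was not analysed here. The series' design text speaks of wild-type and knockout cells instead. The labels of single samples define the groups used below, so differences compare sorted populations and none is an effect of removing Helios.

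TCF1 (gene Tcf7) and LEF1 (gene Lef1) are DNA-binding proteins of the HMG-box class that can recruit beta-catenin or Groucho-type repressors, and both are hallmarks of resting, long-lived T cells. SATB1 folds chromatin loops and is most abundant in thymocytes. In mice it is needed to set up Treg enhancers during thymic development. E proteins such as E2A (Tcf3) and HEB (Tcf12) bind E-box motifs as dimers, while the Id proteins Id2 and Id3 lack the DNA-binding region and hold E proteins in inactive pairs. In mice, Id2 and Id3 together maintain Treg cells, and MYB is needed for effector Treg cells.

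Libraries held 5016661 to 6948692 recovered reads in Helios+ and 4872348 to 6815851 in Helios- cells. Ikzf2 had 9667 to 10906 normalized counts in Helios+ against 418.2 to 572.2 in Helios- libraries, so the sort labels matched the transcript in every library. The Treg factor Foxp3 had 3570.1 ± 201.4 normalized counts in Helios+ cells, against 3526 ± 225.7 in Helios- cells (SD, n = 5 each), and Cd4 had 3208 ± 275.6 and 3334 ± 445.9 in the same order of groups. Of the 9 Treg and CD4 T cell identity genes, however, 4 were called higher in Helios+ cells and 0 lower. These were Il2ra, the interleukin-2 receptor chain CD25, at 4648 ± 397.0 and 3900 ± 269.3 (limma adjusted p = 0.0249), the inhibitory receptor gene Ctla4 at 1533 ± 282.7 and 1045 ± 312.9 (limma adjusted p = 0.0322), the Ikaros family gene Ikzf4 at 753.3 ± 93.9 and 240.2 ± 27.7, and Tnfrsf18, which encodes GITR, at 897.4 ± 60.9 and 411.3 ± 49.3. Markers of other cell types were present at levels below those of Foxp3 and Cd4. Some stood above the lower genes of the axis, in counts not scaled by gene length. The B cell marker Ms4a1 had 296.1 ± 47.1 and 332.7 ± 35.4, above the group means of Id2, Id3 and Sox4. Summed B cell markers (6 of 6 genes in the table, led by Ms4a1) ranged from 1152 to 1571 normalized counts in Helios+ and from 1310.4 to 1780.2 in Helios- libraries. Summed myeloid markers (6 of 6, led by Lyz2) ranged from 263.5 to 512.4 and from 190.5 to 311.4, and summed dendritic cell markers (6 of 6, led by Bcl11a) from 381.4 to 478.0 and from 395.1 to 561.4. Most of the dendritic sum came from Bcl11a, at 230.0 ± 26.3 and 270.6 ± 44.0, and Spib, at 124.8 ± 18.6 and 143.3 ± 19.9. Siglech, Itgax, Flt3 and Xcr1 had group means of at most 26.9, so the sum is a weak measure of dendritic cells. CD8 T and NK cell markers (6 of 6, led by Cd8b1) summed to 436.6 to 506.5 and 435.0 to 524.3. The members of this list did not all go the same way. Of the 5 tested, limma called 1 higher and 0 lower. The gene called was Nkg7, at 67.3 ± 4.85 and 28.3 ± 5.21 (limma adjusted p = 2.61e-05), while Cd8b1 was lower in 5 of 5 pairs. The erythroid and platelet list (3 of 5 genes in the table, led by Ppbp) stayed under 10 in both. The haemoglobin genes of that list have no row among the values used here, so the sum is a weak measure of erythroid cells. In bulk samples, fewer cells of a type and less RNA per cell cannot be told apart.

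Within the axis the genes went in opposite directions. Satb1, Lef1 and Tcf7 fell in Helios+ cells, Myb, Id2 and Id3 rose, and the E-protein genes Tcf3 and Tcf12 and the HMG-box gene Sox4 did not pass the test. Thus 6 of 9 genes were called by limma (the linear-model test for expression data; adjusted p under 0.05, over all genes tested), 3 higher and 3 lower. Among all genes tested, 24.8% were called, 14.1% higher and 10.7% lower. The values of the groups did not overlap for 5 of the 9 genes, against 19.5% of all genes tested. The 9 genes were chosen with earlier results of these data known, so these counts are descriptions. Changes are log2(normalized count + 1) in Helios+ minus that in Helios- cells, and the added 1 makes changes of low genes look smaller. The median change over all genes tested was -0.02.

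**Figure D1:**
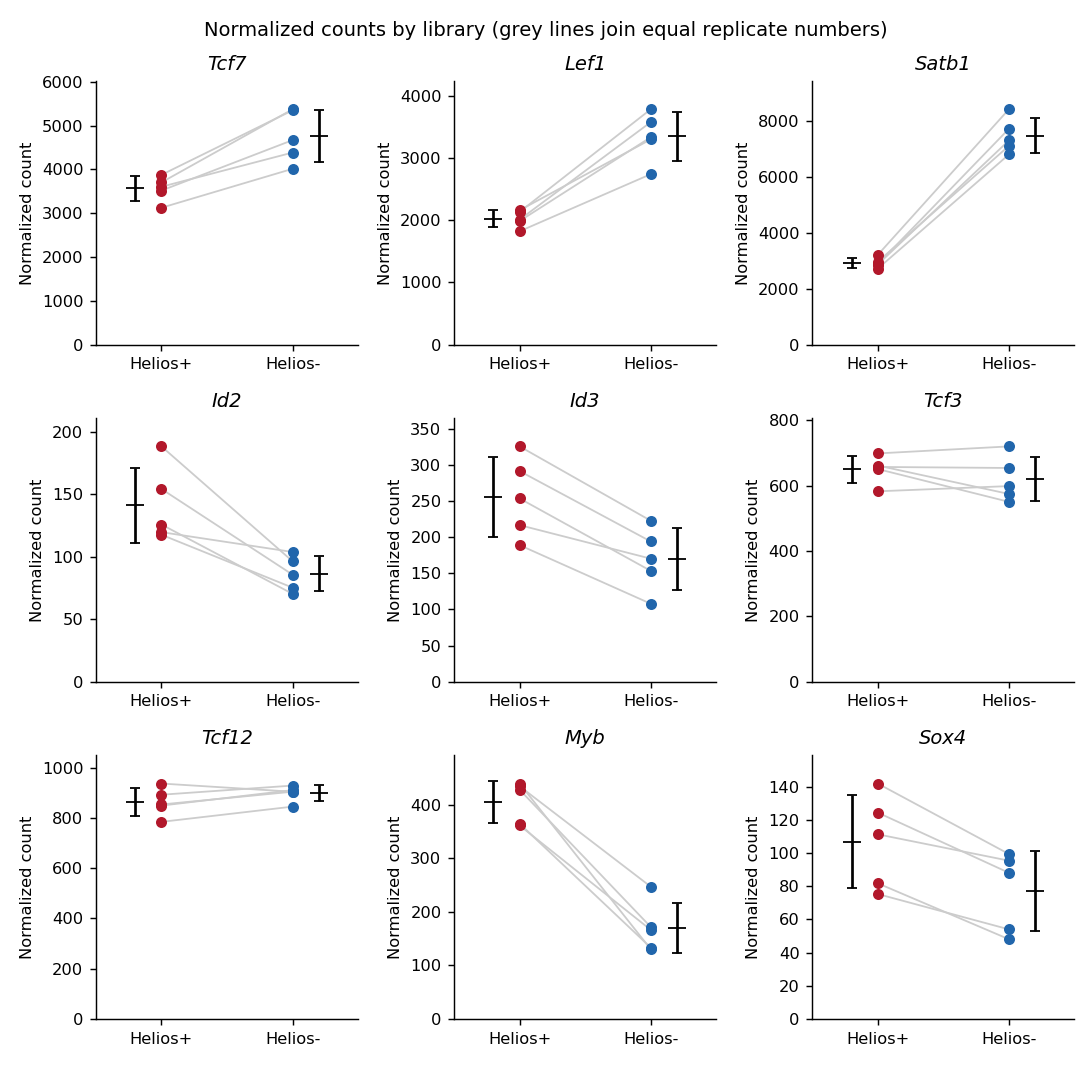
Normalized counts (y axis, linear, from 0) of the 9 genes in 5 Helios+ (red, left) and 5 Helios- libraries (blue, right), with black bars for the mean and SD and grey lines joining libraries of equal replicate number. Satb1, Lef1, Tcf7, Id2 and Myb do not overlap between the groups, while Id3 and Sox4 overlap but are higher in Helios+ in 5 of 5 pairs.

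Satb1 had the largest decrease of the 9 genes. It had 2959, 3205, 2871, 2712 and 2862 normalized counts in Helios+ replicates 1 to 5, against 7098, 8404, 7707, 6791 and 7290.3 in Helios- replicates 1 to 5. Every Helios+ library lay below every Helios- library, with a wide gap between 3205 and 6791. The means were 2922 ± 181.4 and 7458 ± 624.5 (SD, n = 5 each), a 2.55-fold lower level in Helios+ cells. The log2 change was -1.35 ± 0.07 (SE; limma adjusted p = 3.10e-09), and 96.0% of the genes tested had a smaller change in size. The gene lies on chromosome 17 from 51736187 to 51833290 on the minus strand (GRCm38).

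Lef1 was next in size. It had 1821, 2159, 2132, 1986 and 2009 normalized counts in Helios+ replicates 1 to 5, against 2739, 3298, 3781, 3332 and 3575 in Helios- replicates 1 to 5. The groups did not overlap, although replicate 1 was the lowest library of both. Means were 2021 ± 134.8 and 3345 ± 391.5 (SD, n = 5 each), and the log2 change was -0.72 ± 0.08 (SE; limma adjusted p = 1.07e-05). Lef1 lies on chromosome 3 from 131110471 to 131224356 on the plus strand, and 13.7% of its exon bases lie opposite exons of the antisense gene Gm43352. No source used here gives the strand setting of the counting, and reads of that partner may be included.

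Tcf7 showed the smallest change of the 3 lower genes. It had 3124, 3602, 3702, 3516 and 3875 normalized counts in Helios+ replicates 1 to 5, against 4012, 4383, 5370.5, 4667 and 5347 in Helios- replicates 1 to 5. The highest Helios+ library stood just below the lowest Helios- library. Means were 3564 ± 279.8 and 4756 ± 597.3 (SD, n = 5 each), which is -0.41 ± 0.09 in log2 change (SE; limma adjusted p = 0.00303). Tcf7 lies on chromosome 11 from 52252371 to 52283014 on the minus strand, and no exon base is shared with another annotated gene. The 95% intervals of the changes were -1.51 to -1.19 for Satb1, -0.90 to -0.54 for Lef1 and -0.60 to -0.22 for Tcf7, so that of Satb1 was apart from both others.

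Markers of immature thymocytes, cells in which Satb1, Tcf7 and Lef1 are all abundant, were looked at beside these values. Their sum (6 of 8 genes in the table) ranged from 643.4 to 739.4 normalized counts in Helios+ and from 1019.1 to 1123.9 in Helios- libraries. The most abundant of them was Themis, which mature T cells also express and which was called lower, at 350.3 ± 18.9 and 670.4 ± 25.3 (SD, n = 5 each). Nearly all of the rest were the CD8 genes Cd8b1, at 201.6 ± 19.3 and 244.6 ± 33.2, and Cd8a, at 127.9 ± 12.6 and 140.8 ± 16.5. Cd8b1 was lower in 5 of 5 pairs and was called with the replicate block (limma adjusted p = 0.0111, against 0.0755 without it). The part of such cells in the values of Satb1, Lef1 and Tcf7 was not tested. The defining recombinase gene Rag1 was near 0, at 0.529 ± 0.765 and 1.94 ± 1.79. The terminal transferase gene Dntt had 4.81 ± 4.76 and 13.2 ± 5.88. Rag2 and Ptcra have no row among the values used here.

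Myb, a DNA-binding factor of progenitors and activated T cells, rose the most. It had 434.9, 439.9, 364.9, 428.4 and 361.6 normalized counts in Helios+ replicates 1 to 5, against 247.2, 130.2, 133.3, 171.9 and 166.4 in Helios- replicates 1 to 5. All Helios+ libraries were above all Helios- libraries, of which replicate 1 was the highest. Means were 406.0 ± 39.2 and 169.8 ± 47.2 (SD, n = 5 each), 2.39-fold higher in Helios+ cells. The log2 change was 1.29 ± 0.15 (SE; limma adjusted p = 1.11e-05). Myb lies on chromosome 10 from 21124935 to 21160984 on the minus strand, with 6.26% of exon bases opposite exons of Gm26577.

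The DNA before the start sites of Satb1 and Lef1, which fell the most, and of Myb, which rose the most, is shown because E proteins and TCF1 or LEF1 bind short, known motifs. The windows are the 250 bases before the outermost start that RefSeq lists for each gene (GRCm38.p6), written 5′ to 3′ on the gene's strand. Capitals mark the E-box CANNTG and the TCF/LEF core CTTTG or, on the other strand, CAAAG. The E-box reads the same pattern on both strands.
Lef1, chr3:131110047-131110296, plus strand: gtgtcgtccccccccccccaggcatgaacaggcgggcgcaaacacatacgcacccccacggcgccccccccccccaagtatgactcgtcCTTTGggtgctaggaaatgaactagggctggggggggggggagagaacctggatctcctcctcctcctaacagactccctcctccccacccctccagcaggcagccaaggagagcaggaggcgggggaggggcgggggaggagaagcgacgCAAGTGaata
Satb1, chr17:51833291-51833540, minus strand: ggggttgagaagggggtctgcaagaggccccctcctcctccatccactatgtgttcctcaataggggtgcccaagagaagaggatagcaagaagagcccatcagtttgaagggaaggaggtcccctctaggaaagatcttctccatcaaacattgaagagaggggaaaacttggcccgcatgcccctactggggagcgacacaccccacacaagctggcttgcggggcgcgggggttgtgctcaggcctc
Myb, chr10:21160985-21161234, minus strand: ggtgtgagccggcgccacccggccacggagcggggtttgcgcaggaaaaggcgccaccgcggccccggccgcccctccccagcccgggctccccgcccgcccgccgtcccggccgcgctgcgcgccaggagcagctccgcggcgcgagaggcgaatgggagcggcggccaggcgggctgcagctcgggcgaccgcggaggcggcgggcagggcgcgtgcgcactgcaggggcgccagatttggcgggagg
The Lef1 window holds 1 E-box, CAAGTG at position -10 from the start, and 1 TCF/LEF core, CTTTG at -161, which do not overlap. The Satb1 and Myb windows hold neither motif. Over all 9 genes, 6 such windows hold an E-box and 3 hold a TCF/LEF core. Of the 27025 windows of the same length in the RefSeq table, 66.1% hold an E-box and 48.8% a TCF/LEF core. Of the 7682 windows of genes tested, 55.8% and 41.6% do. A listed start need not be the one used in these cells. All 250 bases of the Id3 window and 161 of those of the Id2 window lie in untranslated exons that GENCODE gives to these genes. The windows of Tcf12, Sox4 and Tcf3 hold 52, 14 and 12 such bases. The Tcf7 window, which is counted but not shown, includes the beginning of the coding sequence of the long TCF1 form. A match is a description of the letters and not a binding site. The whole Lef1 window lies opposite exons of Gm43352, and the whole Satb1 window opposite exons of Gm6934.

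Among the Id genes, Id2 and Id3 both rose, and which call was firmer depended on the pairing. Without the replicate block it was that of Id2. With the block, limma adjusted p was 5.80e-05 for Id2 and 6.05e-06 for Id3. Id2 had 125.7, 188.2, 119.6, 117.6 and 154.1 normalized counts in Helios+ replicates 1 to 5, against 70.3, 96.3, 103.8, 75.2 and 85.6 in Helios- replicates 1 to 5. The groups did not overlap, but Helios+ replicates 3 and 4 were close to Helios- replicate 3. Means were 141.1 ± 30.2 and 86.3 ± 14.0 (SD, n = 5 each), which is 0.69 ± 0.15 in log2 change (SE; limma adjusted p = 0.00286). Myeloid and dendritic cells also express Id2. Of the 5 myeloid markers tested, limma called 1 higher and 0 lower. It was Csf1r, named after its values were seen, at 61.6 ± 7.30 and 36.9 ± 5.84 normalized counts. Lyz2 had 188.2 ± 75.9 and 142.1 ± 32.8 and was called with the replicate block (limma adjusted p = 0.0175, against 0.276 without it), while Itgam had 48.5 ± 7.61 and 52.1 ± 18.2. None of the 5 dendritic cell markers tested was called by limma, and none had an unadjusted p under 0.05. Of these, Bcl11a had 230.0 ± 26.3 and 270.6 ± 44.0 and was called lower with the block (limma adjusted p = 0.0218, against 0.187 without it). The part of such cells in the value of Id2 was not tested. The gene lies on chromosome 12 from 25093799 to 25097140 on the minus strand.

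Id3, the other inhibitor of E proteins, had 253.6, 189.0, 325.6, 291.4 and 216.7 normalized counts in Helios+ replicates 1 to 5, against 153.5, 108.0, 222.8, 194.1 and 170.3 in Helios- replicates 1 to 5. The groups overlapped, yet the Helios+ library was higher in 5 of 5 replicate pairs. Means were 255.3 ± 55.1 and 169.7 ± 43.3 (SD, n = 5 each), which is 0.60 ± 0.19 in log2 change (SE; limma adjusted p = 0.0298). The call was lost when Helios+ replicate 1, 3 or 4 or Helios- replicate 1, 2 or 5 was left out alone, with limma adjusted p of 0.0543, 0.0725, 0.0710, 0.0745, 0.0588 and 0.0503. A fit blocked on replicate gave a smaller p (limma adjusted p = 6.05e-06). Id3 lies on chromosome 4 from 136143497 to 136145755 on the plus strand. Id1 stayed under the minimum of 10 for testing, at 2.42 ± 2.00 and 2.06 ± 1.21 normalized counts.

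The E-protein genes were not called in either direction. Tcf3 had 582.6, 650.7, 661.5, 698.5 and 657.2 normalized counts in Helios+ replicates 1 to 5, against 598.6, 550.4, 574.5, 720.0 and 654.0 in Helios- replicates 1 to 5. Its log2 change was 0.07 ± 0.08, with a 95% interval of -0.10 to 0.24 (limma adjusted p = 0.563). Tcf12 had 849.8, 937.6, 893.1, 785.0 and 854.2 normalized counts in Helios+ replicates 1 to 5, against 911.4, 905.0, 929.5, 845.6 and 905.1 in Helios- replicates 1 to 5. Both genes overlapped widely between the groups. The log2 change of Tcf12 was -0.06 ± 0.06, with a 95% interval of -0.19 to 0.07 (limma adjusted p = 0.55). These intervals leave room for changes of up to 0.24 upward in Tcf3 and 0.19 downward in Tcf12, smaller than the estimates for the 6 genes called. Tcf3 lies on chromosome 10 from 80409514 to 80433647 and Tcf12 on chromosome 9 from 71842688 to 72111871, both on the minus strand. B cells also express Tcf3, Tcf12 and Id3, and the part of the B cell signal above in these values was not tested.

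Sox4, an HMG-box factor of the SoxC group that restrains T helper 2 differentiation in mice, depended on the pairing of the libraries. It had 81.7, 75.3, 141.9, 124.4 and 111.3 normalized counts in Helios+ replicates 1 to 5, against 48.0, 54.0, 99.4, 88.1 and 95.4 in Helios- replicates 1 to 5. The groups overlapped because replicates 1 and 2 were low in both, but Helios+ was the higher library in 5 of 5 pairs, as for 19.8% of all genes tested. The log2 change was 0.49 ± 0.23, with a 95% interval of -0.003 to 0.98 (limma adjusted p = 0.143). With the replicate block it was called (limma adjusted p = 0.00241), which made 4 of 9 genes higher and 3 lower. With the block, 37.3% of all genes tested were called, 18.9% higher and 18.5% lower. Sox4 lies on chromosome 13 from 28948919 to 28953713 on the minus strand, and 54.6% of its exon bases lie opposite exons of Gm26735, so its counts may include reads of that gene.

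**Figure D2:**
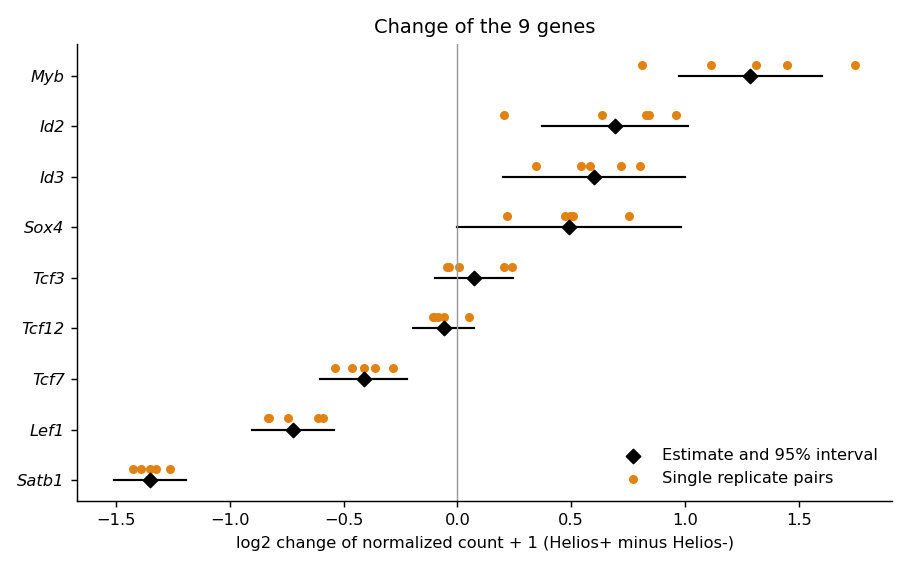
Change in log2(normalized count + 1), positive where Helios+ is higher than Helios- (x axis), for the 9 genes in order of change. Black diamonds and lines are the limma estimate and its 95% interval, and orange points are the differences within the 5 replicate pairs. The interval of Sox4 (-0.003 to 0.98) reaches 0 although all 5 of its pairs lie above it.

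Exact two-sided permutation tests of the mean log2 value, 1 for each of the 9 genes, gave p = 0.00794 for Satb1, Lef1, Tcf7, Id2 and Myb, the smallest p that 5 against 5 libraries allow. They gave an exact permutation p of 0.0397 for Id3, 0.135 for Sox4, 0.397 for Tcf3 and 0.27 for Tcf12.

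The libraries varied together by replicate number, with r of 0.15 to 0.48 between equal numbers over all genes tested. For 5 of the 9 genes the lowest library carried the same replicate number in both groups, and for 4 of the 9 the highest did. These 2 counts describe the 9 genes, and the share over all genes tested was not computed. Id3 was lowest in replicate 2 and highest in replicate 3 of both groups. Satb1 was lowest in replicate 4 and highest in replicate 2 of both, and Tcf7 and Lef1 were lowest in replicate 1 of both. Within pairs, the log2 difference of Satb1 ran only from -1.42 to -1.26, that of Lef1 from -0.83 to -0.59 and that of Tcf7 from -0.54 to -0.28. The differences of the higher genes were more spread. Myb ran from 0.81 in replicate 1 to 1.75 in replicate 2, Id2 from 0.20 to 0.96 and Id3 from 0.35 to 0.80. The standard error with the block was 45.9% of that without it for Id3, 52.1% for Sox4 and 57.1% for Satb1, but 78.5% for Id2 and 79.8% for Tcf12.

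Counting error was compared with the spread between libraries. Sox4 rested on 78 to 166 recovered reads in Helios+ and 41 to 103 in Helios- libraries, and Id2 on 120 to 225 and 60 to 95. Counting error alone gives a coefficient of variation of 9.54% and 11.6% for Sox4, against 26.4% and 31.4% observed. For Satb1, with 2469 to 3832 reads in Helios+ and 6059 to 7942 in Helios- libraries, counting error gives 1.83% and 1.18%, against 6.21% and 8.37% observed. The spread in both genes was therefore larger than counting error alone. Tcf12 in Helios- cells came nearest to it, with 3.52% observed and 3.38% from counting.

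Levels were compared between genes as normalized counts per kilobase of exon, from the GENCODE basic annotation. With these lengths the order was the same in both groups: Tcf7, Lef1, Satb1, Tcf3, Id3, Tcf12, Myb, Id2 and Sox4. The order and levels depend on the annotation chosen. The comprehensive GENCODE annotation gives 8788 exon bases for Lef1, against 3506 in the basic one. For Satb1 these are 19027 against 11491, and for Tcf12 15529 against 6790, while Tcf7, Id2 and Sox4 have equal lengths in both. Levels with the comprehensive lengths are not given here. Tcf7 had 1358 ± 106.6 in Helios+ and 1812 ± 227.5 per kilobase in Helios- cells (SD, n = 5 each), above 98.6% and 98.9% of the genes with an exon length. Satb1 stood above 87.9% of them in Helios+ and 96.5% in Helios- cells, and Myb above 68.1% and 41.2%. Tcf3 and Id3 overlapped in both groups and could not be ordered beyond their spread. Id3 and Tcf12 overlapped in Helios- libraries, Tcf12 and Myb in Helios+ libraries, and Myb and Id2 in Helios- libraries.

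Ratios within a library showed that the genes did not shift by a common factor. These are ratios of counts per kilobase, given as a description with no test, and their levels depend on the exon lengths used. Satb1 over Tcf7 was 0.188 ± 0.0204 in Helios+ and 0.363 ± 0.0551 in Helios- libraries (SD, n = 5 each), with ranges of 0.169 to 0.216 and 0.311 to 0.438. Lef1 over Tcf7 was 0.425 ± 0.0229 and 0.527 ± 0.0242 in the same order of groups, also without overlap. The summed Id2 and Id3 over the summed Tcf3 and Tcf12 was 0.781 ± 0.0975 in Helios+ and 0.516 ± 0.105 in Helios- libraries, higher in 5 of 5 pairs with an overlap between the groups. Id2 over Id3 was 0.312 ± 0.137 and 0.284 ± 0.105, with wide overlap. The Id to E-protein ratio is of transcripts and says nothing of the proteins.

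**Figure D3:**
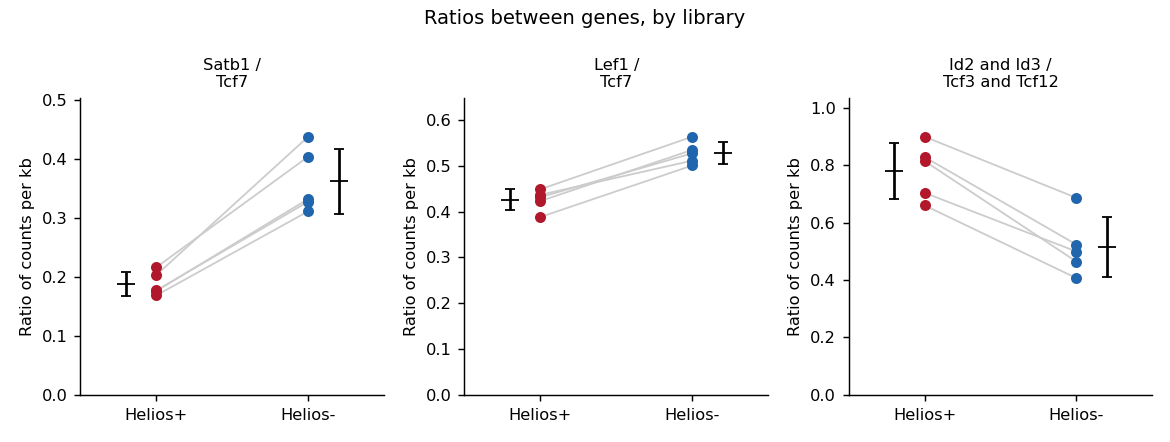
Ratios of normalized counts per kilobase of exon (y axis, linear, from 0) in 5 Helios+ (red, left) and 5 Helios- libraries (blue, right), with mean and SD in black and grey lines joining equal replicate numbers. Satb1 over Tcf7 lies between 0.169 and 0.216 in Helios+ libraries, all below the Helios- libraries, and the Id to E-protein ratio is higher in Helios+ in every pair.

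The genes whose pattern over the 10 libraries was most like each of the 3 lower genes were found by the root mean square difference between centred log2 profiles, among 8026 genes with a mean of at least 50. For Satb1 they were Il6ra, which encodes a chain of the interleukin-6 receptor (difference 0.0926), Pdk1, a kinase that restrains pyruvate dehydrogenase (0.106), and the T cell kinase Txk (0.133). For Lef1 they were Klf2, a factor of resting, recirculating T cells (0.0582), the sialyltransferase St8sia6 (0.0595) and Klf13 (0.0708). For Tcf7 they were Smad3, a mediator of TGF-β signals (0.0658), Rasgrp1, an activator of Ras below the T cell receptor (0.0663), and Rcn1 (0.0692). The closest gene to Lef1, Klf2, had 1239 ± 93.8 normalized counts in Helios+ cells, against 2050.0 ± 277.5 in Helios- cells (SD, n = 5 each). Smad3 had 529.4 ± 55.4 and 733.2 ± 75.4. Since the group difference weighs heavily in this measure, these genes mainly share its size.

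Genes around the axis were taken from 7 lists chosen with earlier results of these data known, so their counts are descriptions. Of 101 genes tested, 16 were higher and 30 lower in Helios+ cells, with a median log2 change of -0.08. Among all genes tested, 14.1% were called higher and 10.7% lower, so the count of higher genes was near the general share. With the replicate block these shares were 18.9% and 18.5%. The counts of each list below stand beside these shares, and a count near them is no result about its genes. Of 24 genes of resting and stem-like T cells, 20 fell and 0 rose, with a median of -0.67. At an unadjusted limma p under 0.05 and with edgeR and DESeq2, 0 rose as well. Quantile normalization called 15 lower. Il6ra had 832.7 ± 39.1 normalized counts in Helios+ cells, against 1982 ± 53.6 in Helios- cells, and the surface protein gene Ly6c1 had 21.2 ± 6.87 and 369.3 ± 76.0 (SD, n = 5 each). Pdk1 and Txk had log2 changes of -1.22 ± 0.06 and -1.37 ± 0.09. The 4 that were not called, named after their values were seen, were Cd27, Slamf6, Ets1 and Il7r. Il7r varied widely, at 1911 ± 1134 in Helios+ and 1921 ± 1192 normalized counts in Helios- libraries.

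Of 14 factors of T cell differentiation, 10 rose and 2 fell, with a median log2 change of 0.67. Bhlhe40, a bHLH factor induced by T cell activation, had 260.4 ± 36.2 normalized counts in Helios+ cells, against 53.1 ± 11.5 in Helios- cells. Irf4, needed for effector Treg cells, had 648.6 ± 44.9 and 389.4 ± 13.5, and Nfil3 103.1 ± 11.8 and 29.8 ± 6.80 (SD, n = 5 each). Of the lower genes, Runx3, a Runt-domain factor of cytotoxic T cells, named after its values were seen, changed by -0.35 ± 0.08.

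Among 24 cofactors of TCF1 and LEF1 and regulators of beta-catenin, 4 fell and 0 rose in limma, with a median log2 change of -0.11. At an unadjusted limma p under 0.05, 2 were higher, and edgeR called 0, DESeq2 1 and quantile normalization 2 higher. The replicate block called 3 higher and 10 lower. Axin2, a feedback inhibitor that TCF factors switch on in many tissues, had 337.0 ± 21.4 normalized counts in Helios+ cells, against 609.0 ± 82.3 in Helios- cells (SD, n = 5 each), a log2 change of -0.84 ± 0.09 (limma adjusted p = 3.85e-06). Bcl9l, which links beta-catenin to its coactivators, had 762.3 ± 14.0 and 1120.6 ± 128.4. The Wnt co-receptor Lrp5 changed by -0.73 ± 0.17 and the kinase Nlk by -0.25 ± 0.08. The call of Nlk was lost on leaving out Helios+ replicate 4, Helios+ replicate 5 or Helios- replicate 4 (limma adjusted p = 0.0570, 0.0738 and 0.0733). Leaving out Helios- replicate 1 gave 8 genes lower, and leaving out Helios+ replicate 2, Helios- replicate 3 or Helios- replicate 4 gave 1, 2 and 1 higher. The beta-catenin gene Ctnnb1 itself, named after its values were seen, was not called, at 1453 ± 117.5 and 1343 ± 100.1.

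The E-protein and Id network had 1 of 10 genes higher and 1 lower, near the 14.1% and 10.7% of all genes tested. Gfi1, a transcriptional repressor of lymphocyte development, had 242.8 ± 32.2 normalized counts in Helios+ cells, against 132.5 ± 23.1 in Helios- cells (SD, n = 5 each). Crebbp, an acetyltransferase that E proteins and MYB recruit, changed by -0.22 ± 0.07. Its call was lost with quantile normalization (limma adjusted p = 0.647) and on leaving out Helios+ replicate 1, Helios+ replicate 4, Helios- replicate 2 or Helios- replicate 5 (limma adjusted p = 0.0763, 0.0779, 0.0563 and 0.0517). The acetyltransferase genes Kat2a and Ep300 missed the threshold (limma adjusted p = 0.0511 and 0.0784) and passed it with the replicate block (limma adjusted p = 0.0105 and 0.0121), which gave 4 genes lower. Kat2a also passed with quantile normalization (limma adjusted p = 0.0418) and on leaving out Helios+ replicate 2, Helios+ replicate 3 or Helios- replicate 1 (limma adjusted p = 0.0331, 0.0479 and 0.0305). Ep300 also passed with DESeq2 (adjusted p = 0.0169).

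Of 11 genes for partners of SATB1, 1 rose and 3 fell, and the block gave 3 and 4. Cux1, which shares the CUT type of DNA-binding domain with SATB1, changed by -0.44 ± 0.07, and the acetyltransferase Kat2b by -0.45 ± 0.10. The remodeller subunit Baz1a changed by 0.20 ± 0.06 and Ctcf by -0.18 ± 0.06. The call of Baz1a was lost without Helios+ replicate 2 or 4 (limma adjusted p = 0.0520 and 0.0637). With Helios- replicate 3 or 5 left out, 2 genes of the list were higher. The call of Ctcf was lost when any of 7 of the 10 libraries was left out alone, namely Helios+ replicates 1 to 4 and Helios- replicates 3 to 5, with limma adjusted p of 0.0510 to 0.105. It was also lost with no filter, with quantile normalization and with edgeR (adjusted p = 0.0518, 0.273 and 0.0596).

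Of 7 genes of the MYB family and its cofactors, 1 rose, Cebpb, at 67.8 ± 16.9 normalized counts in Helios+ cells, against 29.7 ± 9.98 in Helios- cells (SD, n = 5 each). That count is near the 14.1% called higher among all genes tested. None fell in limma, at an unadjusted p under 0.05, in edgeR or in DESeq2, and the block called Mll1 lower (limma adjusted p = 0.0196). The other named members, Mybbp1a and Mybl2, changed by -0.10 ± 0.07 and 0.35 ± 0.43. Among 11 other HMG-box genes 3 rose and 0 fell in limma, with 1 lower at an unadjusted p under 0.05 and 0 in edgeR and DESeq2. Tox2 had 221.1 ± 31.2 normalized counts in Helios+ cells, against 28.2 ± 6.86 in Helios- cells, Tox 1073 ± 105.1 and 559.7 ± 82.4, and Sox12, a SoxC relative of Sox4, 57.1 ± 16.9 and 23.4 ± 7.26 (SD, n = 5 each). The block called Cic, a transcriptional repressor, lower (limma adjusted p = 0.0186).

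**Figure D4:**
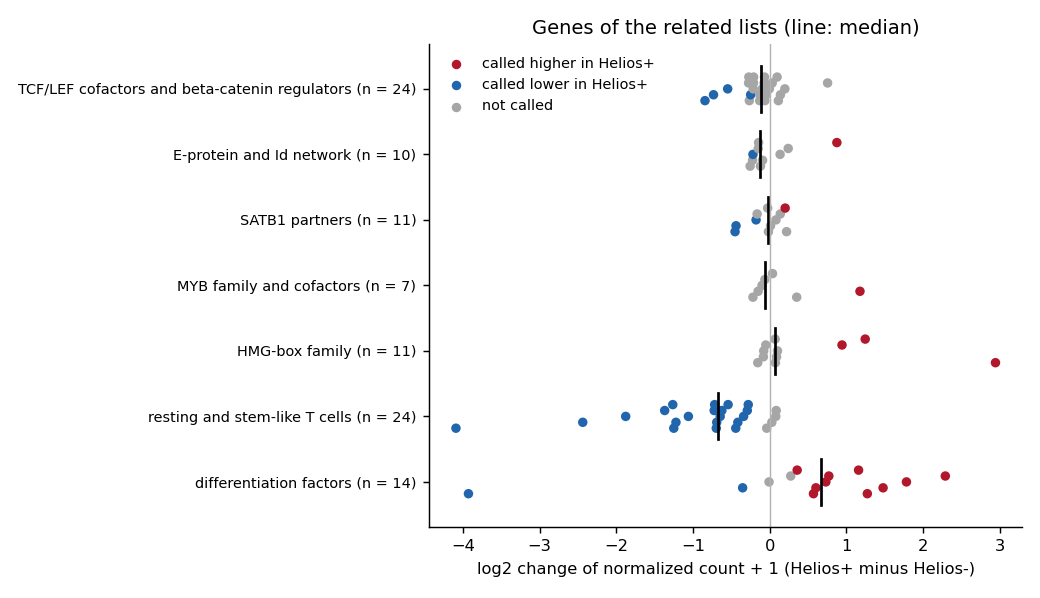
Change in log2(normalized count + 1), positive where Helios+ is higher than Helios- (x axis), of every gene tested in the 7 related lists, red where called higher in Helios+, blue where called lower and grey where not called, with a black line at each list's median. The resting list has its median at -0.67 and the differentiation list at 0.67, while the medians of the other lists lie between -0.13 and 0.07.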

How the data were processed

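The authors deposited 1 table of normalized counts, a signal that is never negative, for 13252 genes in 10 libraries. Per the labels' protocols, RNA was treated with DNase I on the column and total RNA libraries were made with a stranded SMARTer kit. The build mm10, HISAT2 2.0.4, HTSeq and DESeq2 are named without roles, per the submitters' processing notes. Annotation, strand setting and gene filter: not given in the sources used here. Every deposited value (100% within a tolerance of 0.001) was a whole multiple of its library's smallest value, so whole reads were recovered by division.

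Genes with a mean of at least 10 were tested (10718) with limma 3.58.1 (R 4.3.3; trend and robust) on log2(normalized count + 1), with a term for the group alone and Benjamini-Hochberg adjustment over all of them. Exact two-sided permutation tests were run for the 9 genes. edgeR 4.0.16 and DESeq2 1.42.0 on recovered reads, other pseudocounts, filters and scalings, the replicate block and left-out libraries were alternatives. The limma, edgeR and DESeq2 fits without the block were tested on simulated data with independent libraries. The fit with the replicate block was not, so that test does not cover the pairing of libraries. Equal replicate numbers correlated in their deviations from the group means (r = 0.48, 0.19, 0.39, 0.16 and 0.15 for replicates 1 to 5, each over the limit of 0.1), so they were taken to pair the libraries. Libraries of a group differed by more than sampling noise (chi-square per degree of freedom 3.67 to 55.8 over 20 pairs), so none were merged. The labels do not say that they came from separate mice, and p-values then cover only the spread between these libraries, possibly a technical one.

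The genes and lists were chosen with earlier results of these data known. The genes named were the 9 genes, Ikzf2, Foxp3 and Cd4, the 4 genes with the smallest p of each related list, the most abundant gene of each marker list, and the 3 genes most alike to Tcf7, Lef1 and Satb1. A gene that this rule took is not reported here. The marker genes Rag1, Dntt, Rag2, Ptcra, Csf1r, Itgam, Cd8a, Ctla4, Ikzf4 and Tnfrsf18 and the gene Id1 were named after their values were seen. So were the marker genes Nkg7, Spib, Siglech, Itgax, Flt3 and Xcr1. Rn45s and Malat1 were named to describe the libraries. Over all libraries, Rn45s made up 8.54% to 18.6% of recovered reads, highest in Helios- replicate 3. Malat1 made up 1.30% to 3.64%, highest in Helios- replicate 1. Within the Helios- group, replicate 1 was lowest for Tcf7, Lef1, Id2 and Sox4 and highest for Myb. Replicate 3 of that group was highest for Tcf7, Lef1, Id2, Id3, Tcf12 and Sox4. Neither was an extreme for Satb1 or Tcf3. The bearing of these shares on the 9 genes was not tested. Gene positions and exon overlaps are from GENCODE (GRCm38) and promoter windows from RefSeq (GRCm38.p6). Exon lengths were found for 9697 of the genes tested.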

Additional observations from a re-analysis of the deposited data

Results flagged for a closer look

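In 90 sets of 5 libraries (45 named genes in 2 groups), 2 held a library far from the other 4, by a gap above 0.71 of the whole range. Chance alone gives about 1 in 20 such sets. None concerned the 9 genes of the axis. Cebpb had 38.9 normalized counts in Helios+ replicate 4, against 70.1 to 82.3 in the other 4 Helios+ libraries. Tox had 885.5 normalized counts in Helios+ replicate 1, against 1113 to 1136 in the others of that group.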

How the results depend on the processing

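Satb1, Lef1, Tcf7, Id2 and Myb kept their direction and their call in every alternative run, and Tcf3 and Tcf12 stayed uncalled with their direction in each. The log2 change of Id3 ranged from 0.45 to 0.71 when 1 library, or both libraries of a replicate number, were left out. Its call was lost in 6 of 10 single cases and in 3 of 5 paired ones, with limma adjusted p up to 0.132. The paired omissions were chosen after the data were seen. The replicate block left the change of Sox4 at 0.49 and brought it past the threshold (limma adjusted p = 0.00241). With the block, 1979 of all genes tested were lower, against 1143 without it, and 748 were lower without both libraries of replicate 4 and 927 to 1293 without 1 library. Apart from the genes given with the block in the report, Cd8b1, Lyz2 and Bcl11a among them, it changed no call of a gene named there by the fixed rule. The small change of Mybl2, not called in any alternative, reversed to -0.083 without Helios- replicate 3, and ranged up to 0.66 with libraries left out. Scaling moved the median change of all genes by less than 0.1, from -0.02 to -0.05 with quantile normalization. Counting error was below the observed coefficient of variation of Id2, at 8.31% of the mean against 21.4% in Helios+ and 10.9% against 16.2% in Helios- libraries.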
